A study of Mus musculus with 12 samples.

Results

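Serum amyloid A1, encoded by Saa1, is a major acute phase apolipoprotein that hepatocytes secrete in inflammation. Its transcript stood at widely different levels in the 12 liver libraries of this series, and the livers with much Saa1 were compared here with those with little. The groups were chosen by the measured level of Saa1 itself, in CPM (a gene's count scaled by the library's total count). A library was taken as high when Saa1 exceeded 1000 CPM and as low when Saa1 was under 200 CPM. Of the 12 libraries, 5 were high (WT 590, WT 601, KO 588, KO 591 and KO 602) and 7 were low (WT 573, WT 776, WT 777, WT 778, KO 574, KO 584 and KO 780). The lowest of the high libraries, KO 591, had 1925 CPM and the highest of the low libraries, KO 584, had 88.5 CPM, so no library lay near either threshold. The high libraries ran up to 16541 CPM in KO 602, and the low ones down to 20.2 CPM in WT 777.

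The livers came from wild-type (WT) and A1cf -/- mice (KO) of strain C57BL/6, aged 6 to 8 weeks, with 6 libraries per genotype that the design text calls biological replicates. A1CF is an RNA-binding partner of the cytidine deaminase APOBEC1. The high group held 2 WT and 3 KO libraries and the low group 4 WT and 3 KO libraries, and the labels name no treatment, infection or injury of any animal. Neither the sex of the mice nor the construction of the A1cf allele is stated in the labels. Because a measured transcript chose the libraries, and the genes of 1 liver vary together, every difference between high and low libraries below is a description without a p-value. Saa1 itself is left out of every count between high and low libraries and is named as no result, though it stays among the 13706 genes of the comparison between genotypes.

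In the acute phase response, interleukin-6, interleukin-1 and tumour necrosis factor reach hepatocytes from macrophages and other cells. Interleukin-6 signals through a receptor with the shared subunit gp130 and JAK kinases to the transcription factor STAT3, while interleukin-1 and tumour necrosis factor act through NF-κB, and C/EBP factors cooperate with both. Hepatocytes then secrete more of the positive acute phase proteins, which bind lipids, haem, iron carriers or proteases, and less of negative acute phase proteins such as albumin and transthyretin.

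Total counts per library lay between 24222010 and 51082317 in the high group and between 22129092 and 40597491 in the low group. The targeted transcript A1cf stood at 47.9 to 53.8 CPM in WT and 8.20 to 12.6 CPM in KO libraries, and fell by 2.26 on the log2 scale in KO (adjusted p = 1.1e-08, edgeR's quasi-likelihood test), whereas its high minus low difference was 0.03. High libraries were found in both genotypes, 2 of 6 in WT and 3 of 6 in KO. By the numbers in the titles, all 5 high libraries were among the 8 numbered 573 to 602 and none among the 4 numbered 776 to 780. What a range of numbers stands for is not stated, so values among the libraries numbered 573 to 602 (5 high, 3 low) are given beside many of the results.

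The promoters of 4 acute phase genes whose transcripts set the high libraries apart are shown here. They are marked for motifs of C/EBP and STAT factors, which the account of the acute phase response above names. Each is the stretch of 250 bases directly before the gene's start in RefSeq, on build GRCm38.p6, read 5′ to 3′ on the gene's strand. Capitals mark a match to the C/EBP-type motif TTGNGNAA in the first 3 and to the STAT-type motif TTCNNNGAA in Itih4, both searched on either strand. For Lcn2 the window lies inside the gene span given further on, because RefSeq and the annotation of the counts place its start differently.
Saa2, chr7:46751583-46751832, plus strand: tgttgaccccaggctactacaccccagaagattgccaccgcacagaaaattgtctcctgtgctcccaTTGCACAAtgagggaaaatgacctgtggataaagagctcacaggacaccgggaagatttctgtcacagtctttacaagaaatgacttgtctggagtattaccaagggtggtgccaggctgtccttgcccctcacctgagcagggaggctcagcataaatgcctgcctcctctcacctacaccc
Orm2, chr4:63362199-63362448, plus strand: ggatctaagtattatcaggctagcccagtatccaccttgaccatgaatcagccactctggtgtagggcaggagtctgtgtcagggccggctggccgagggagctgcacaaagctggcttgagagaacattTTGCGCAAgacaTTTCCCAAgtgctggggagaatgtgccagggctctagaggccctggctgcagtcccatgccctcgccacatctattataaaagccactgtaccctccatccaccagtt
Lcn2, chr2:32387740-32387989, minus strand: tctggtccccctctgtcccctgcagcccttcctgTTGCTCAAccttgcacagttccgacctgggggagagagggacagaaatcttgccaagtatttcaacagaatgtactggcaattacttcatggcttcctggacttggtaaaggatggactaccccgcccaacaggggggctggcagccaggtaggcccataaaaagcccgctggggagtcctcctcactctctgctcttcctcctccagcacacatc
Itih4, chr14:30886226-30886475, plus strand: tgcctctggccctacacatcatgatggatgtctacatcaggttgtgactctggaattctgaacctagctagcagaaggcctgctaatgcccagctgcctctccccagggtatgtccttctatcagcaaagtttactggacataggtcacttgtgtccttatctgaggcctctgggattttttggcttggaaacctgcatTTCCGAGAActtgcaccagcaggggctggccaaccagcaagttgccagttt
The C/EBP-type match began 183 bases before the start in Saa2 and 216 bases before it in Lcn2, in both on the strand opposite to the gene. Orm2 held 2 such matches, at 120 bases in letters that match on both strands and at 108 bases on the opposite strand. In Itih4 the STAT-type match began 51 bases before the start, again in letters that match on both strands. Over all 32851 promoters of the RefSeq table, 11.73% held the C/EBP-type motif and 7.02% the STAT-type motif in a window of this length. All 4 printed windows hold a match, whereas those of the separated acute phase genes Lrg1, Serpina3n and Il18 hold 0 of either motif. No motif of NF-κB was searched. A match is a description of letters and not a measured binding site.

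The largest separated differences between high and low libraries were in Saa2, Orm2 and Lcn2, which all encode secreted acute phase proteins, and 10 of 30 tested genes of fatty acid oxidation and ketogenesis were lower in every high than in every low library. A gene is called separated when all 5 high libraries lay above, or all 5 below, every one of the 7 low libraries in CPM scaled by TMM, a scaling that evens out library composition. Of 108 tested genes of the acute phase lists, 17 were separated upward and 0 downward. Over all 13705 tested genes, 439 (3.2%) were separated upward and 386 (2.82%) downward. A log2 difference is taken from a fit with genotype as covariate, and its median over all genes was −0.01. Separated genes with a log2 difference of at least 1 in size numbered 86 upward (0.628%) and 38 downward (0.277%). When library totals replaced TMM the separated genes split into 292 upward and 676 downward, so the balance of directions over all genes depended on the scaling. Leaving out KO 574 or KO 591 gave 136 and 142 genes separated and 2-fold higher, and leaving out WT 590 gave 709 genes separated downward.

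Serum amyloid A and the pentraxins came first. Saa2, the second acute phase serum amyloid of the mouse (chromosome 7, 46751833 to 46754314, plus strand, mm10), stood at 6960.5 CPM in WT 590, 5629 in WT 601, 2457 in KO 588, 1345 in KO 591 and 17474 in KO 602, against values between 8.26 and 32.7 CPM (median 14.97) in the low libraries. All high libraries exceeded all low ones, and the log2 difference was 8.62 (SD within groups 1.13), a 393-fold higher level. It was 9.04 within WT and 7.60 within KO, which share no library. Saa1 and Saa2 are near-identical in sequence, so the count of each is uncertain. The Saa2 value is not independent of the gene that chose the libraries. Apcs, the serum amyloid P component and the main acute phase pentraxin of the mouse (chromosome 1, 172893961 to 172895041, minus strand), was measured at 585 CPM in WT 590, 336 in WT 601, 179 in KO 588, 127 in KO 591 and 1351 in KO 602, and between 24.1 and 63.6 CPM (median 37.3) in the low group. Its groups did not overlap, with a log2 difference of 3.66 (SD 1.01). Saa4, the constitutive member of the family, was higher by 1.68 (489 to 1009 CPM in the high and 213 to 296 CPM in the low libraries). Saa3, which macrophages and fat cells also make, reached 1371 CPM in KO 602 but only 11.8 CPM in KO 591, below the 14.8 CPM of WT 776, and was not separated over all 12 libraries. Crp, C-reactive protein, a weak acute phase protein in mice, differed by 0.12 with overlapping groups (284 to 378 CPM in the high and 262 to 332 CPM in the low libraries). Among the libraries numbered 573 to 602 alone all 5 members of the list were separated upward, Saa3 and Crp included, against 7.64% of all genes. Crp was at 0.24 in a fit of those libraries.

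The orosomucoids and lipocalin 2 followed. Orm2, an α1-acid glycoprotein that carries lipophilic ligands in plasma (chromosome 4, 63362449 to 63365878, plus strand), stood at 861 CPM in WT 590, 477 in WT 601, 278 in KO 588, 124 in KO 591 and 2131 in KO 602, and between 4.98 and 13.2 CPM (median 7.86) in the low libraries. High and low values did not overlap, and the log2 difference was 6.51 (SD 1.11), or 91.3-fold. For Lcn2, lipocalin 2, which binds bacterial siderophores and so withholds iron (chromosome 2, 32384633 to 32388252, minus strand), the high libraries had 904 CPM in WT 590, 432 in WT 601, 112 in KO 588, 51.95 in KO 591 and 1730.4 in KO 602. In the low libraries Lcn2 was between 3.93 and 17.1 CPM (median 6.296), below all of these, and the log2 difference was 6.17 (SD 1.501), with 6.51 in WT and 4.51 in KO. For both genes KO 602 was the highest and KO 591 the lowest of the high libraries. Orm1 was separated by 2.88 (1055 to 5959.7 CPM in the high and 342 to 469 CPM in the low libraries) and Orm3 by 2.81 (16.1 to 52.2 CPM in the high and 1.47 to 8.95 CPM in the low libraries). The 3 orosomucoid genes lie side by side on chromosome 4 and share sequence, so the values of single members are uncertain. Lrg1, leucine-rich α2-glycoprotein, was separated by 1.77 (590 to 2327 CPM in the high and 368 to 541 CPM in the low libraries). Lbp, the lipopolysaccharide-binding protein, differed by 0.10 and its partner Cd14 by 0.10, neither separated. Cd14 ran from −0.11 to 0.25 with 1 library left out and was 0.46 within the numbers 573 to 602.

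**Figure D1:**
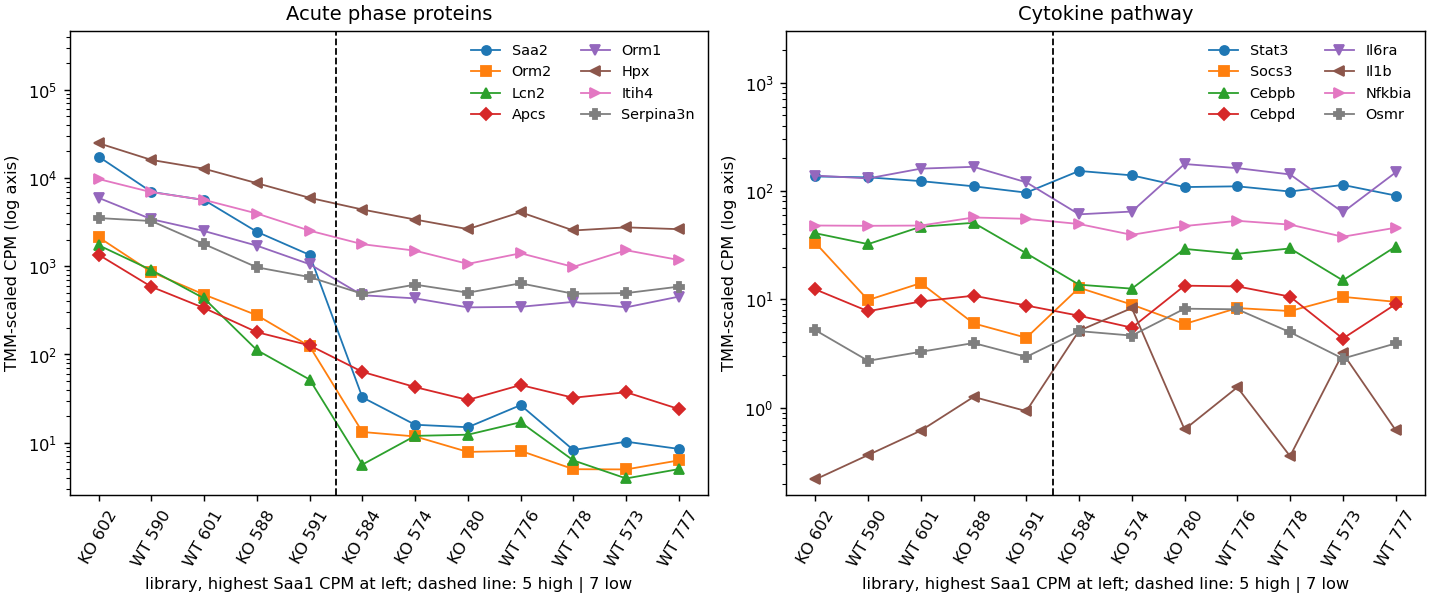
TMM-scaled CPM (log axis) of 8 acute phase proteins (left) and of 8 cytokine pathway genes (right) in each of the 12 libraries, placed from left to right by falling Saa1 CPM. Thin lines join the values of 1 gene, and the dashed line parts the 5 high from the 7 low libraries. All 8 acute phase proteins at left are higher in every library left of the dashed line, while none of the 8 genes at right is separated.

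Among the carriers of haemoglobin, haem and the clot proteins, 3 of 7 were separated upward. Hpx, hemopexin, which carries free haem, was measured at 16039.8 CPM in WT 590, 12742 in WT 601, 8741 in KO 588, 5962 in KO 591 and 24800.2 in KO 602, and between 2544 and 4393 CPM (median 2759.5) in the low group. The groups did not overlap, with a log2 difference of 2.08 (SD 0.60). Hp, haptoglobin, which captures haemoglobin, was separated by 1.47, though narrowly, since KO 591 had 4965 CPM and WT 776 4909.5 CPM. Fgl1, a fibrinogen-like protein of hepatocytes, was separated by 1.83 (849 to 2151 CPM in the high and 285 to 786 CPM in the low libraries). The fibrinogen chains Fga, Fgb and Fgg had differences of 0.67, 0.86 and 0.73 and overlapped. Fga was 0.41 and Fgg 0.47 within the numbers 573 to 602, and Fga 0.36 without WT 590. For Fga the high libraries ran from 2797 to 8532 CPM and the low ones from 2607 to 3808 CPM. Ceruloplasmin, Cp, the copper-carrying ferroxidase, differed by 0.79 and missed separation because KO 574 (1139 CPM) exceeded KO 591 (1122 CPM).

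Of 11 tested protease inhibitors, 4 were separated upward. Itih4, an inter-α-trypsin inhibitor heavy chain (chromosome 14, 30886476 to 30901981, plus strand), whose promoter is printed above, stood at 6909 CPM in WT 590, 5648 in WT 601, 3962 in KO 588, 2532 in KO 591 and 9736 in KO 602, and between 983 and 1778 CPM (median 1403) in the low group. No values overlapped and the log2 difference was 2.09 (SD 0.56). Serpina3n, an α1-antichymotrypsin of the mouse, was separated by 1.94 (754 to 3518 CPM in the high and 487 to 640.4 CPM in the low libraries). Serpina10, the protein Z-dependent protease inhibitor, was separated by 1.08 and Serpina3m by 0.56. The Serpina3 genes form a family of close copies, so values for single members are uncertain. Other members of the family behaved otherwise, with −0.24 for Serpina3k and −0.27 for Serpina3g, neither separated, and Serpina3k was at 0.0082 within the numbers 573 to 602. Pzp, the pregnancy zone protein that is the abundant α-macroglobulin of mouse plasma, differed by 0.81 and overlapped (3888 to 8318 CPM in the high and 3002 to 4135 CPM in the low libraries). A2m was too low to be tested, with 1544 counts in KO 602, 49 in WT 590 and at most 10 in the other 10 libraries.

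The separated genes also varied among the high libraries. By Saa1, the gene that chose them, these ran from KO 602 through WT 590, WT 601 and KO 588 to KO 591. Of the 17 separated acute phase genes, which include Saa2, 10 had all 5 high libraries in that order. The same order held for 13 of the 86 genes separated and 2-fold higher (15.1%) and for 153 of all 13705 genes (1.12%). Since the Saa1 split picked out the 17 and the 86 genes, their counts are a description only. KO 588 was the deepest library and KO 602 the shallowest of the high group. The 86 genes together took 2.63% to 10.5% of the CPM in the high libraries and 1.31% to 1.73% in the low ones.

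Metal handling genes of the acute phase were not separated. The metallothioneins Mt1 and Mt2, which bind zinc and copper, differed by 1.07 and 0.88. The low libraries were themselves uneven, with Mt1 at 121 CPM in WT 573, 157 in WT 777, 142 in WT 778 and 412 in KO 574, but 608 in WT 776, 626 in KO 780 and 773 in KO 584. The last 3 of these overlapped the high libraries (537 to 1302 CPM). Hamp, hepcidin, the hormone that limits iron export and a known target of interleukin-6, was not higher in the high libraries: its difference was −0.88 (348 to 829.6 CPM in the high and 407 to 2049 CPM in the low libraries). Without KO 584 it was −0.46, and within the numbers 573 to 602 −1.33. Steap4, a metalloreductase, differed by 0.93 and Slc39a14, a zinc and iron importer, by 0.11, both with overlap.

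Negative acute phase proteins were not lower as a group. Of 12 tested genes 0 were separated downward, 8 had a difference above 0, and the list's median was 0.18. Albumin, Alb, differed by −0.13 (56994 to 75807 CPM in the high and 59729 to 81679.6 CPM in the low libraries), transthyretin, Ttr, by 0.13, retinol-binding protein, Rbp4, by −0.24 and apolipoprotein A1, Apoa1, by −0.15, all with overlapping groups. Trf, transferrin, which carries iron in plasma, was separated upward by 1.06 (1205 to 2218 CPM in the high and 569 to 904 CPM in the low libraries). Serpina6, the carrier of corticosteroids, differed by 1.36 with overlap, and by 0.87 within the numbers 573 to 602.

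The ligands that drive the response were scarcely measured in these livers. Il6 had 0 to 6 counts per library, Tnf 0 to 5, Osm 0 to 2, Lif 0 to 4 and Il11 0 to 5, while Il22 had 0 in all 12. Where a library had 0 counts, as many as 3 remain possible, which is 0.0587 to 0.136 CPM and covers counting error only. Among the 6 ligands tested, Il18 alone was separated upward (9.16 to 11.7 CPM in the high and 4.98 to 8.03 CPM in the low libraries, log2 0.68). Il1b, interleukin-1β, had a difference of −2.14, with 8.31 CPM in KO 574, 5.14 in KO 584 and 3.18 in WT 573. The high libraries had 0.218 to 1.26 CPM, and the other 4 low ones 0.358 to 1.54 CPM.

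Receptors, transcription factors and feedback inhibitors gave another picture than the secreted proteins. Over all 12 libraries none of 14 receptor and JAK genes, 14 transcription factors, 11 feedback inhibitors and 12 chemokine and pattern recognition genes was separated in either direction. Stat3 differed by 0.03 (96.5 to 136 CPM in the high and 90.7 to 153 CPM in the low libraries). Socs3, the STAT3-induced inhibitor of the interleukin-6 receptor, stood at 9.86 CPM in WT 590, 14.1 in WT 601, 6.002 in KO 588, 4.42 in KO 591 and 33.2 in KO 602, and between 5.93 and 12.8 CPM (median 8.95) in the low libraries. KO 602 was thus above all others for Socs3 while KO 588 and KO 591 lay under the low median. Nfkbia, the NF-κB inhibitor, differed by 0.15 and Il6st, which encodes gp130, by −0.14. The neutrophil chemokine Cxcl1 was at 89.9 CPM in KO 602, and its other high libraries (9.96 to 26.8 CPM) overlapped the low ones (5.26 to 35.2 CPM). Among the acute phase lists, only secreted proteins were separated over all 12 libraries, so the groups are called high and low by their Saa1 level rather than inflamed and quiet.

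Few of these regulators were separated among the libraries numbered 573 to 602. There, 25 of the 108 acute phase genes were separated upward and 6 downward, against 7.64% and 8.18% of all 13705 genes. Most of the 25 were secreted proteins, so that count says little about regulators. Upward separation held for 2 of 14 receptor and JAK genes, 2 of 14 transcription factors and 1 of 11 feedback inhibitors. Of 12 chemokine and pattern recognition genes 0 were separated upward and 2 downward. Cebpb, which encodes a C/EBP factor of the acute phase, stood at 32.3 CPM in WT 590, 46.7 in WT 601, 50.8 in KO 588, 26.6 in KO 591 and 40.7 in KO 602, against 14.96 CPM in WT 573, 12.6 in KO 574 and 13.7 in KO 584. The groups did not overlap within this number range, with a difference of 1.48 in mean log2 CPM, but the 4 low libraries numbered 776 to 780 were at 26.3 to 30.6 CPM. Il6ra, the ligand-binding subunit of the interleukin-6 receptor, had 120 to 167 CPM in the high libraries and 60.8 to 64.6 CPM in the 3 low libraries of the range. In the 4 libraries numbered 776 to 780 it had 142 to 177 CPM. Il1r1, the interleukin-1 receptor, had 38.5 to 103 CPM in the high libraries, 25.3 to 29.5 CPM in the 3 low libraries of the range and 79.7 to 110.3 CPM in the other 4. For Cebpb, Il6ra and Il1r1 the low libraries of the 2 number ranges did not overlap. Cebpd and Tnfaip3 were also separated upward within the range, and Il1b, Clcf1, Nfkb1, Myd88 and Ccl5 downward. In the fit of these libraries Stat3 was at −0.17, Il6st at −0.26, Nfkbia at 0.29, Ttr at 0.03 and Slc39a14 at 0.22.

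The acute phase lists were then set against genotype, which the labels give. Of 108 tested members, 1 passed an adjusted p of 0.05 between KO and WT (edgeR's quasi-likelihood test), against 523 of all 13706 genes (3.82%), and 20 had an unadjusted p under 0.05, against 2903 of all genes (21.2%). That gene was Il1rap, the accessory subunit of the interleukin-1 receptor, which was lower in KO by 0.49 on the log2 scale (adjusted p = 0.011) and differed by −0.00413 between high and low libraries. For Saa2 the KO minus WT difference was 0.76 (adjusted p = 0.87), for Orm2 0.91 (0.81) and for Lcn2 0.49 (0.91). None of the 825 separated genes passed the KO against WT test. That fit held no term for the Saa1 split, so the gap between high and low libraries counted as spread within each genotype. Passing was therefore unlikely for separated genes, and their absence says little about genotype. The count of 523 was 266 to 324 when WT 573, WT 777, WT 778, KO 574, KO 588 or KO 591 was left out, and 1037 with the Saa1 split as a covariate. In DESeq2 6 acute phase genes passed, against 8.55% of all genes. In limma-voom 4 passed, against 573 of all genes (4.18%), and with the split as a covariate 5 passed, against 7.57% of all genes. None of these members was a separated gene.

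**Figure D2:**
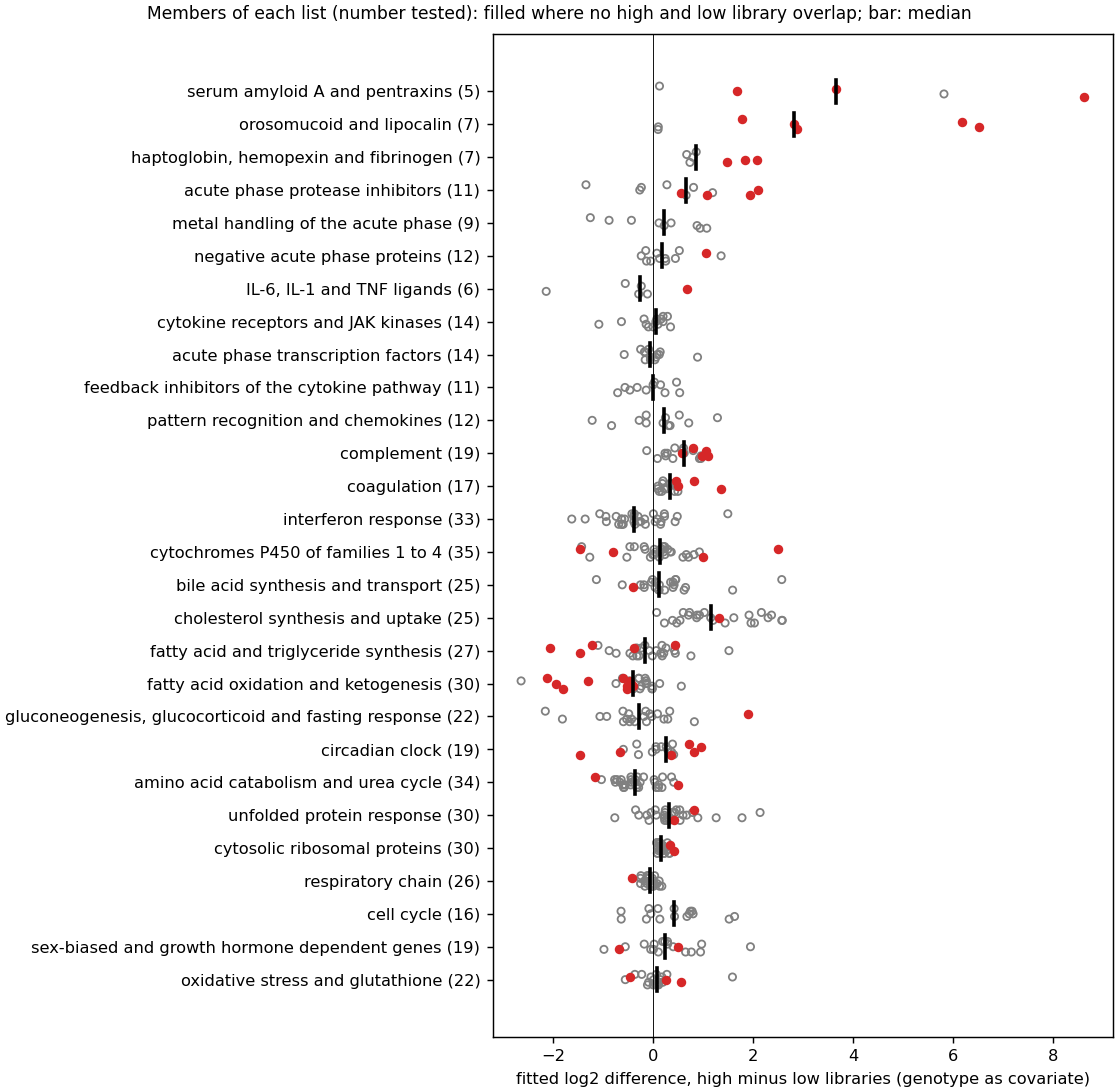
Fitted log2 difference (high minus low libraries, genotype as covariate) of each tested member of the 28 acute phase and pathway lists, with the number tested in brackets. Filled points are members whose high and low libraries did not overlap, open points are the others, and the black bar is the list's median, which is highest for serum amyloids and pentraxins (3.66).

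Some transcripts of other plasma proteins were also separated upward. Complement, a cascade of plasma proteins that marks and lyses microbes, had 5 of 19 tested genes separated upward, 18 of 19 with a difference above 0 and a median of 0.60, against −0.01 for all genes. C8a, a chain of the membrane attack complex, was separated by 1.05 (786 to 1244 CPM in the high and 394 to 642 CPM in the low libraries), C4b by 0.98 and C2, an enzyme of the classical pathway, by 0.79. In coagulation all 17 tested genes had a difference above 0, with a median of 0.33, and 4 were separated. These were Cpb2, a fibrinolysis inhibitor (1.36; 301 to 777 CPM in the high and 172 to 229 CPM in the low libraries), Kng1, kininogen (0.82), Plg, plasminogen (0.49) and F10, factor X (0.44). Without a low-count filter Plg was no longer separated.

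Outside the acute phase, the largest upward differences were mixed in function. Moxd1, a monooxygenase related to dopamine β-hydroxylase (chromosome 10, 24223517 to 24302790, plus strand), stood at 45.8 CPM in WT 590, 52.0 in WT 601, 34.5 in KO 588, 70.3 in KO 591 and 209.9 in KO 602. In the low WT libraries it was at 0.194 to 0.586 CPM and in the low KO libraries at 4.75 to 16.9 CPM. The difference was therefore 6.85 in WT and 2.92 in KO, and 4.52 in the fit. Cyp2c70, which makes the muricholic acids of mouse bile, was separated by 2.50 (73.3 to 249 CPM in the high and 14.3 to 44.2 CPM in the low libraries), and the Cyp2c genes are close copies of each other. Prg4, lubricin, was separated by 2.31 (51.8 to 103 CPM in the high and 11.6 to 21.1 CPM in the low libraries), the chemokine Cxcl14 by 2.34, Fam25c by 2.11, Cyp2g1 by 2.22 and Isyna1, inositol-3-phosphate synthase, by 2.06.

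Genes of fatty acid oxidation were among those that were lower in the high libraries. Of 30 tested genes of fatty acid oxidation and ketogenesis, 10 were separated downward and 0 upward, 28 had a difference below 0, and the median was −0.40. Many are known targets of the nuclear receptor PPARα. Ehhadh, the peroxisomal bifunctional enzyme (chromosome 16, 21761287 to 21787844, minus strand), stood at 298 CPM in WT 590, 689 in WT 601, 209 in KO 588, 379.9 in KO 591 and 291 in KO 602, and between 866 and 2637 CPM (median 1688) in the low libraries. All high libraries lay below all low ones, with a log2 difference of −2.12 (SD 0.53). Acot1, a cytosolic acyl-CoA thioesterase, had 12.5 CPM in WT 590, 56.5 in WT 601, 46.1 in KO 588, 69.3 in KO 591 and 47.5 in KO 602, and between 143 and 208 CPM (median 171) in the low group. The groups did not overlap, at −1.94, and its neighbour and close copy Acot2 was separated by −1.30. Pdk4, which shuts off pyruvate oxidation in fasting, was separated by −1.80 (3.45 to 5.16 CPM in the high and 5.66 to 25.3 CPM in the low libraries), but by −1.03 in a fit of the libraries numbered 573 to 602. Cyp4a14, a fatty acid ω-hydroxylase, was separated by −1.47 and Cyp4a12b by −0.80, again close copies.

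Some genes of lipid droplets, for which no list was set, were also separated downward. Cidec, which fuses lipid droplets (chromosome 6, 113424634 to 113435760, minus strand), was measured at 4.91 CPM in WT 590, 21.3 in WT 601, 13.1 in KO 588, 22.1 in KO 591 and 23.4 in KO 602, and between 42.9 and 89.5 CPM (median 68.6) in the low group. Its groups did not overlap (log2 −2.07, SD 0.66). The droplet coat protein gene Plin2 was separated by −1.22 (308 to 492 CPM in the high and 601 to 1196 CPM in the low libraries) and Plin5 by −1.46, the latter by −0.68 within the numbers 573 to 602. G0s2, an inhibitor of triglyceride lipase, was separated by −1.92 (14.5 to 99.9 CPM in the high and 138 to 270.1 CPM in the low libraries). In the list of fatty acid and triglyceride synthesis, which holds Cidec, Plin2 and Plin5, 4 of 27 genes were separated downward, 11 had a difference above 0 and 16 below. The droplet genes Plin4 (−0.33) and Cidea (0.43) of that list were not separated. Dgat2, the last enzyme of triglyceride synthesis, was separated upward by 0.43, a separation lost with library totals as the scaling.

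Further genes with large downward differences were of other kinds. Lepr, the leptin receptor (chromosome 4, 101717404 to 101815352, plus strand), stood at 2.86 CPM in WT 590, 2.01 in WT 601, 1.97 in KO 588, 3.65 in KO 591 and 2.53 in KO 602, and between 5.94 and 39.1 CPM (median 12.5) in the low libraries. The high libraries lay between 1.97 and 3.65 CPM, below all low ones (log2 −2.85). Krt23, a keratin (chromosome 11, 99477974 to 99493137, minus strand), had 0.403 to 2.99 CPM in the high and 5.68 to 16.8 CPM in the low libraries, with −2.80. Gdf15, a stress hormone, was separated by −1.56 (1.36 to 3.94 CPM in the high and 5.93 to 11.95 CPM in the low libraries). Insig2, which retains the sterol regulator SREBP in the endoplasmic reticulum, was separated by −1.47 (90.1 to 130.4 CPM in the high and 231 to 388 CPM in the low libraries), and Slc25a25, a mitochondrial carrier of ATP and phosphate, by −1.54. Tubb2a, a tubulin, was separated by −1.78, the phosphatase gene Dusp8 by −1.90 and Lamb3, a laminin chain, by −1.59, the last not under library totals.

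**Figure D3:**
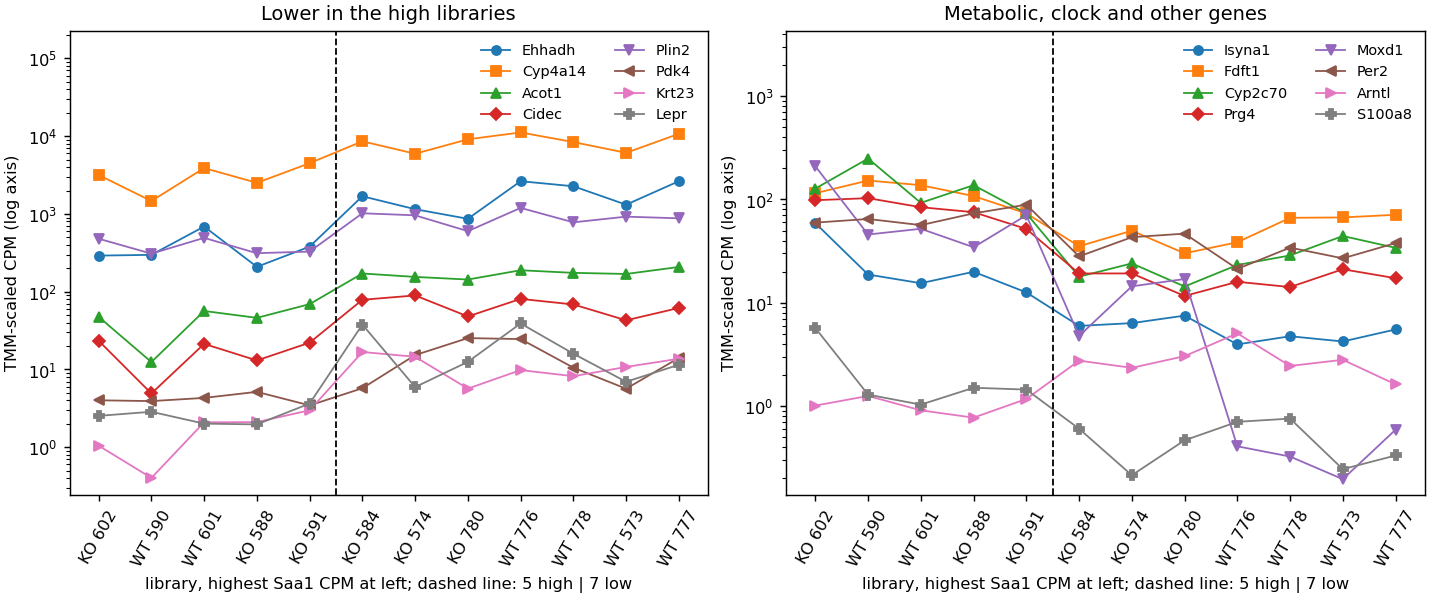
TMM-scaled CPM (log axis) of 8 genes that were lower in the high libraries (left) and of 8 metabolic, clock and other genes (right), with the 12 libraries placed by falling Saa1 CPM. Thin lines join the values of 1 gene, and the dashed line parts the 5 high from the 7 low libraries, which do not overlap for any of the 16 genes.

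In sterol metabolism few genes were separated over all libraries. All 25 tested genes of cholesterol synthesis and uptake had a difference above 0, with a median of 1.15, but only Fdft1, squalene synthase, was separated (73.3 to 153 CPM in the high and 30.1 to 71.1 CPM in the low libraries, log2 1.31). That 1 of 25 is near the 3.2% of all genes separated upward. Among the libraries numbered 573 to 602, where fewer libraries must separate, 7 of these 25 were separated upward, against 7.64% of all genes.

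Some clock genes were separated as well. Of 19 tested, 4 were separated upward and 2 downward, against 3.2% and 2.82% of all genes. The list's median was 0.26, with 0.04 within WT and 0.26 within KO. Arntl, which encodes BMAL1, the activator of the clock, was separated by −1.47 (0.767 to 1.25 CPM in the high and 1.61 to 5.04 CPM in the low libraries), while the repressor gene Per2 was separated upward by 0.96 (56.4 to 89.1 CPM in the high and 21.2 to 46.7 CPM in the low libraries). Per3, another repressor gene, was separated upward by 0.71. The labels give no hour of collection, so the part of the time of day in any of these differences was not tested.

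The pattern was next compared between genotypes. The high minus low difference in mean log2 CPM was taken within WT (2 high, 4 low) and within KO (3 high, 3 low), sets that share no library, although both were divided by Saa1. Over 13705 genes the WT and KO differences had a Pearson r of 0.635 and a Spearman rho of 0.546, across genes that are not independent of each other. Of 469 genes that differed at least 2-fold in WT, 424 (90.4%) had the same sign in KO, against 70.9% of all genes. Among the libraries numbered 573 to 602 the differences in mean log2 CPM were 8.06 for Saa2, 5.74 for Orm2, 5.67 for Lcn2, 2.95 for Apcs, 1.82 for Hpx, −1.99 for Ehhadh and −2.18 for Cidec. Complete separation within each genotype was upward in both for 855 genes, downward in both for 732 and opposite for 52. Separation of 2 from 4 and of 3 from 3 libraries is a weak requirement.

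**Figure D4:**
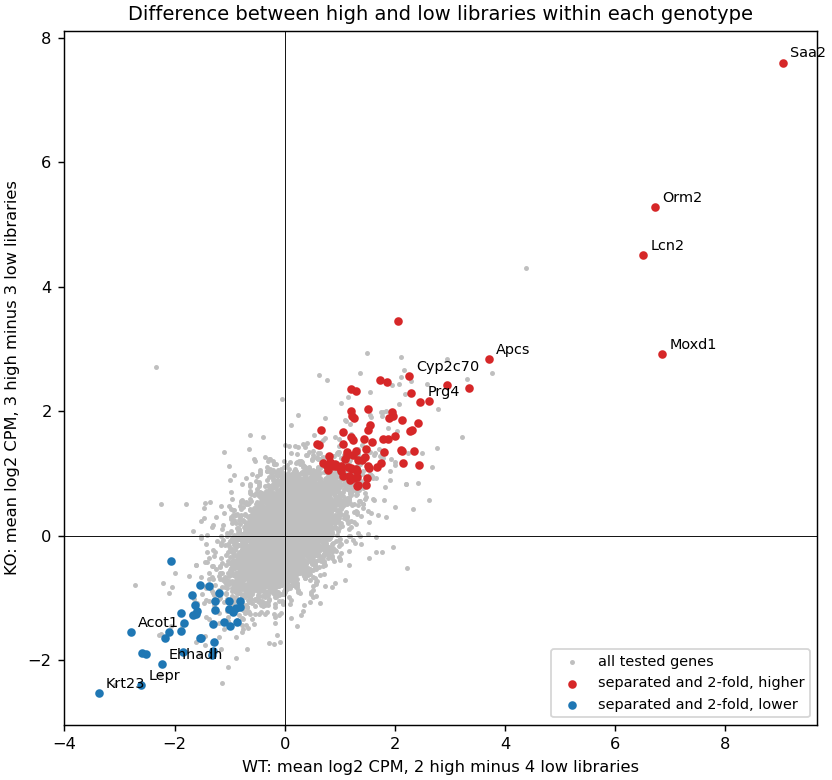
Difference in mean log2 CPM between high and low libraries within WT (x axis) and within KO (y axis) for all 13705 tested genes in grey. Genes separated and 2-fold over all 12 libraries are red (86 higher) or blue (38 lower), and Saa2 stands farthest from 0 at 9.04 and 7.60.

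Markers of other liver cells were examined beside these results, and fewer cells of a type and less RNA per cell cannot be told apart in bulk tissue. Of 11 Kupffer cell and macrophage markers 0 were separated, all 11 had a difference above 0, and their summed level was 193 to 490.5 CPM in the high and 134 to 264 CPM in the low libraries. The median of that list was 0.08 within WT and 0.92 within KO. Between KO and WT, 10 of the 11 had an unadjusted p under 0.05 (edgeR's quasi-likelihood test), against 21.2% of all genes. After adjustment 0 of the 11 passed. The parts of genotype and of Saa1 level in these markers were not tested. Of 12 neutrophil markers 3 were abundant enough to test, and S100a8, a calcium-binding protein of neutrophils, was separated (1.03 to 5.67 CPM in the high and 0.212 to 0.751 CPM in the low libraries, log2 2.02). The summed level of all 12 was 6.32 to 24.7 CPM in the high and 2.40 to 5.88 CPM in the low libraries, without overlap. The defining marker Ly6g had 0 to 2 counts and Mpo 0 to 5 counts per library. Col3a1, a collagen of fibroblasts, was separated by 1.44 (17.4 to 50.9 CPM in the high and 4.25 to 17.3 CPM in the low libraries), though not under library totals, and 9 other tested stellate cell and fibroblast markers were not. No marker of monocytes, T and NK cells, B and plasma cells, sinusoidal endothelium, bile duct, red cells, pancreas and gut or muscle and fat was separated. The 7 hepatocyte markers were abundant in all libraries, with 0 separated and sums of 76537 to 95457 CPM in the high and 81823 to 106252 CPM in the low libraries. The part of neutrophils or macrophages in the differences above was not tested.

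Matches to the 2 motifs were counted in the promoters of the genes that differed. RefSeq promoters were found for 59 of the 86 genes separated and 2-fold higher, 27 of the 38 lower and 11 of the 17 separated acute phase genes. The C/EBP-type motif was present in 15 of the 59 (25.4%), in 7 of the 27 (25.9%) and in 6 of the 11 (54.55%), against 13.21% of the 27025 genes with a promoter in the table. Those 6 include Orm2 and Orm3, whose windows are close copies, and Saa2 and Saa4 of the same family, so they are not independent promoters. The STAT-type motif was present in 10 of the 59 (16.95%), in 0 of the 27 and in 2 of the 11 (18.18%), the latter 2 being Apcs and Itih4, against 8.13% of those 27025 genes. The C/EBP-type letters were thus about as frequent in promoters of genes that were lower as of genes that were higher.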

How the data were processed

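Liver RNA of 6 WT and 6 KO mice was made into libraries with a TruSeq RNA kit after miRNeasy extraction, per the labels' protocols. The deposited table holds raw fragment counts per gene name for 46882 names, counted by the authors with featureCounts 1.5.0-p2 over exons of GENCODE M8, without options for strand, multiple mapping or duplicates, per the file headers. Reads of overlapping genes therefore cannot be told apart by strand. STAR, DESeq2 and the mm10 build appear in the submitters' processing notes. The deposited exonic length, another value per gene, was not used.

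The analysis of the deposited counts used edgeR 4.0.16 under R 4.3.3 (TMM; filterByExpr by genotype, minimum count 10; robust quasi-likelihood fit; prior count 2 for log2 CPM), leaving 13706 genes, Saa1 included. KO was compared with WT by glmQLFTest with Benjamini-Hochberg adjustment over all of them and a threshold of 0.05. High and low libraries were compared by fitted log2 differences with genotype as covariate and by separation, without p-values, since a measured value chose the groups. The steps were tested on simulated data. SD within groups is that of log2 CPM around the means of the 4 combinations of genotype and Saa1 level. Pairs of libraries of a group differed by more than counting noise (chi-square over degrees of freedom at least 15.15). P-values measure the spread between these mice.

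The split, the gene lists (11 acute phase, 17 pathway, 12 marker lists) and the motifs were chosen with earlier results of these data known. Named genes are members of the acute phase lists, up to 4 separated members per other list (2 where none was), and the 15 largest differences each way with a mean of at least 1 CPM, unnamed gene models passed over; 4 genes these rules name are not reported here. Genes that passed the filter are not all members: 108 of 120 acute phase genes were tested. Alternatives were other scalings, filters, tools (DESeq2 1.42.0, limma 3.58.1), covariates, the libraries numbered 573 to 602 alone, and each library left out. Promoters come from RefSeq on GRCm38.p6.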

Additional observations from a re-analysis of the deposited data

Results flagged for a closer look

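Within each genotype, 39 genes were examined for a library far from the other 5 of its genotype on the log2 CPM scale. They were the separated acute phase genes and the named genes with the 15 largest differences each way. Of 78 pairs of gene and genotype, 4 had a highest or lowest library whose gap to its neighbour exceeded Dixon's 95% critical value for 6 libraries, and chance alone flags about 1 in 20 groups. Serpina3n was at 3518 CPM in KO 602, against 487 to 972 CPM in the other KO libraries. In WT 590, G0s2 was at 14.5 CPM, against 99.9 to 270.1 CPM in the other WT libraries. In the same library Lamb3 was at 5.94 CPM, against 18.5 to 36.5 CPM, and Slc25a25 at 28.3 CPM, against 161 to 375 CPM. Both libraries belong to the high group, and the 3 lowest values all fell in WT 590.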

How the results depend on the processing

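Over the 73 named separated genes, 1606 values under 22 other settings kept their direction, 0 reversed, and 6 moved by more than the spread within groups. Because complete separation chose these genes, a reversal was hardly possible under most of these settings, so its absence is no measure of stability. Within the numbers 573 to 602 alone, where fewer libraries must separate and the filter and scaling were redone (13988 genes), 1046 genes were separated upward and 1160 downward, 218 and 126 of them 2-fold. Library totals gave 292 separated upward and 676 downward. Without any low-count filter 123 genes were separated and 2-fold higher and 55 lower. With each library left out in turn, 444 to 643 genes were separated upward and 434 to 709 downward, and 83 to 142 were 2-fold higher and 37 to 53 lower, where fewer libraries again ease separation. Without the 2 deepest libraries, WT 573 and KO 588, a setting chosen after seeing the data, 117 were 2-fold higher and 56 lower, of which 81 and 36 were also in the main counts. Between KO and WT, 1172 genes passed with DESeq2, 1037 with the Saa1 split as covariate and 266 to 638 with a library left out, and the cause was not tested. Acute phase genes that passed numbered 6 with DESeq2, 5 with the Saa1 split as covariate, 4 with limma-voom, 3 with a mean of at least 1 CPM, 2 with the number range as covariate and 1 to 3 with a library left out. The split of the libraries was the same with Saa1 in TMM CPM. Abcb4, which flips phospholipids into bile, was no longer separated with RLE size factors, without a filter or without KO 602. No paired analysis was possible because WT and KO libraries share no number. Depth limits the cytokine transcripts, several of which had under 10 counts in every library.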

Other observations

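In several further gene groups few members were separated. None of 33 tested interferon response genes was separated over all 12 libraries (median −0.38, 23 below 0), with Rsad2 at −1.63. Among the libraries numbered 573 to 602 alone, where fewer libraries must separate, 10 of the 33 were separated downward, against 8.18% of all genes. All 30 tested cytosolic ribosomal protein genes had a difference above 0 with a median of 0.16, and Rplp1 (0.42) and Rps2 (0.34) were separated. In the unfolded protein response 2 of 30 were separated, Sec61b, a subunit of the translocation channel (37.0 to 42.2 CPM in the high and 17.6 to 24.1 CPM in the low libraries), and Edem1 (0.42). Of 34 genes of amino acid catabolism and the urea cycle 24 had a difference below 0. Aass, the first enzyme of lysine breakdown, was separated downward by −1.16 and Glud1, glutamate dehydrogenase, upward by 0.49.

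Among the remaining lists, Cyp1a2, a drug-metabolising enzyme of pericentral hepatocytes, was separated upward by 1.00 (306 to 539.7 CPM in the high and 134 to 263 CPM in the low libraries). Abcb4 was separated downward by −0.40 and the respiratory chain subunit Ndufs1 by −0.42. In the list of growth hormone dependent genes Ghr, the growth hormone receptor, was separated upward by 0.49 and Elovl3 downward by −0.69, Elovl3 not under library totals. For oxidative stress, Gpx1 was higher by 0.55 and Gss by 0.26, Gss not under library totals, and Gsr, glutathione reductase, was lower by −0.46. No cell cycle gene was separated, with Top2a at 1.63 and Mki67 at 1.52. Spp1, osteopontin, which bile duct cells and macrophages make, reached 505 CPM in KO 602 against 21.1 to 76.2 CPM in the low libraries. It was not separated, since WT 601, KO 588 and KO 591 (42.7 CPM) all lay below WT 573 (76.2 CPM). The Spp1 difference was 1.96, and 0.86 without KO 602.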
